A study of Sus scrofa with 6 samples.

Results

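The m6A writers are the proteins that place a methyl group on the nitrogen at position 6 of adenosines inside messenger RNA, and their 8 genes were followed in pig oocytes: METTL3, METTL14, WTAP, VIRMA, ZC3H13, CBLL1, RBM15 and RBM15B. Members were taken as the rows of the deposited gene table that carry one of these names, and 8 of the 8 listed names were found among 19296 rows. The 8 genes were also all kept by the filter on low counts, with at least 270 reads in every library. The list is a named protein family, selected on membership of that assembly with the measured count differences between large and small follicles already in view. The differences between groups below therefore describe the libraries and test nothing about the family.

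Messenger RNA was sequenced from oocytes of large antral follicles (3 to 6 mm in diameter) and of small antral follicles (1.5 to 1.9 mm). Both groups came from ovaries of prepubertal gilts collected at an abattoir, and the cumulus cells around the oocytes had been stripped off before RNA was isolated. Each group had 3 libraries, and follicle size is the one contrast in the labels, in a study of oocytes that differ in developmental competence. The labels do not say whether the 3 libraries of a group came from separate collections of ovaries, so SDs, SEs and tests reflect variation among these particular libraries and possibly no more than technical variation.

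Writers act as a multi-protein assembly in the nucleus. METTL3 carries the catalytic site and takes the methyl group from S-adenosylmethionine, METTL14 pairs with it and helps it grip RNA, and the other subunits hold the pair in nuclear speckles and steer it to chosen stretches of transcripts. The mark is read by YTH-domain and other RNA-binding proteins, which act on splicing, export, translation and decay of the message, and it can be removed by FTO and ALKBH5. In mouse oocytes, loss of Mettl3 is known to impair maturation and the clearance of maternal messages, and loss of Virma is known to stop oocytes from gaining the ability to resume meiosis.

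Total counts ranged from 8015357 in large-follicle library 3 to 56887282 in large-follicle library 2. Large-follicle library 3 also stood apart on the first principal component, with a score of 54.5 against -15.0 to -6.03 in the other libraries, so the log2 differences of the writers without it are shown beside those with all libraries in the plot of differences. Summed oocyte markers (9 genes) were at 25010 to 28200 TPM in large-follicle libraries and 34133 to 35672 TPM in small-follicle libraries, where TPM is a level scaled for gene length and library depth. Not all of the 9 were lower in large-follicle libraries. BTG4 was at 1447 to 1578 TPM in large-follicle libraries and 1160 to 1308 TPM in small-follicle libraries. MOS overlapped, at 1337 to 1644 TPM in large-follicle libraries and 1543 to 1614 TPM in small-follicle libraries. Summed granulosa and cumulus markers (14 genes, none at 0 in every library) were at 128 to 161 TPM in large-follicle libraries and 123 to 189 TPM in small-follicle libraries. Their levels differed widely from gene to gene and, for some, from library to library. KITLG stood highest, at 50.1 to 62.8 TPM in large-follicle libraries and 55.8 to 61.2 TPM in small-follicle libraries. FDX1 came next, at 27.5 to 36.1 TPM in large-follicle libraries and 33.1 to 37.8 TPM in small-follicle libraries. CYP19A1 was at only 0.199 to 0.429 TPM in large-follicle libraries and 0.216 to 0.660 TPM in small-follicle libraries. INHA, a subunit of the hormone inhibin, was at 5.67 to 13.7 TPM in large-follicle libraries and 4.17 to 35.6 TPM in small-follicle libraries, and INHBA, another inhibin subunit, at 8.83 to 32.4 TPM in large-follicle libraries and 4.66 to 28.2 TPM in small-follicle libraries. FSHR, the receptor for follicle-stimulating hormone, was at 0.572 to 1.26 TPM in large-follicle libraries and 0.0748 to 2.31 TPM in small-follicle libraries. The part of these marker levels in the values below was not tested. A level in TPM or CPM is a share of the RNA sequenced, so less of a transcript per oocyte and more of other RNA in the sample cannot be told apart.

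In assembly Sscrofa11.1 the 8 genes lie at separate places, by RefSeq's gene table. METTL3 lies on chromosome 7 from 77661945 to 77679459 and METTL14 on chromosome 8 from 105019539 to 105053603. WTAP lies on chromosome 1 from 7622544 to 7651732, VIRMA (listed there as KIAA1429) on chromosome 4 from 42162424 to 42236310 and ZC3H13 on chromosome 11 from 21298855 to 21387557. CBLL1 lies on chromosome 9 from 107456261 to 107474615, RBM15 on chromosome 4 from 109767464 to 109791555 and RBM15B on chromosome 13 from 33664387 to 33671047. At their ends METTL3 overlaps TOX4 by 55 bases, RBM15B overlaps DCAF1 by 72 bases and WTAP overlaps an unnamed RefSeq gene by 1093 bases. The sources used here do not say if counting used strand, and reads from these overlaps could belong to either gene.

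All 8 writers were detected in every library, but their levels per length spanned a wide range. CBLL1, also called HAKAI, a RING-finger protein and a regular subunit of the assembly, was the most abundant, at 403 ± 79.8 TPM in large-follicle oocytes and 347 ± 18.5 TPM in small-follicle oocytes (mean ± SD, n = 3 each, as for all group values here). Its mean level was at or above that of 97.2% of the genes tested. RBM15, an RNA-binding protein that brings the assembly to particular messages, was the least abundant, at 9.35 ± 1.81 TPM in large-follicle oocytes and 8.63 ± 0.670 TPM in small-follicle oocytes. METTL3, the catalytic subunit, was the next lowest, at 47.7 ± 4.51 TPM in large-follicle oocytes and 48.9 ± 1.83 TPM in small-follicle oocytes.

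**Figure D1:**
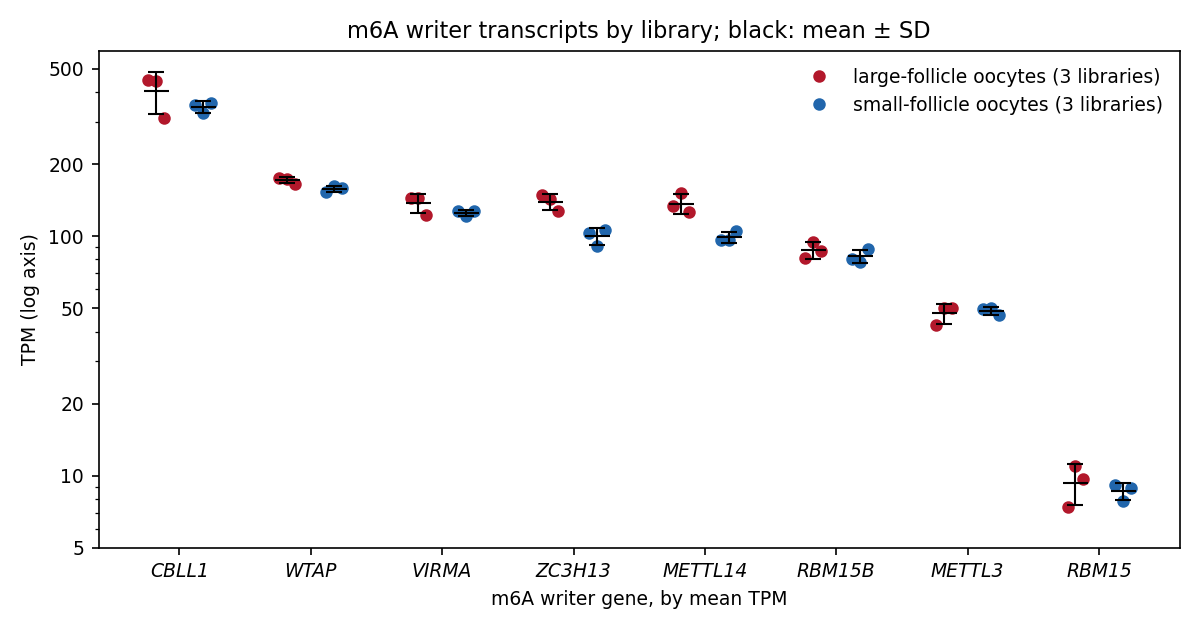
TPM of the 8 m6A writer genes on a log axis, ordered by mean over 6 libraries. Each point is 1 library, large-follicle oocytes in red on the left and small-follicle oocytes in blue on the right of each gene, and black marks give the mean ± SD; CBLL1 is highest and RBM15 lowest in every library, and the groups do not overlap for WTAP, ZC3H13 and METTL14.

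By mean TPM over the 6 libraries the order was CBLL1, WTAP, VIRMA, ZC3H13, METTL14, RBM15B, METTL3 and RBM15, and the first 2 and last 3 places were the same in each group's means. CBLL1 stood above WTAP in 6 of 6 libraries, by 1.88 to 2.57 times. WTAP, the scaffold through which the METTL3 and METTL14 pair joins the regulatory subunits, stood above VIRMA in 6 of 6 libraries, by 1.20 to 1.35 times. The order of the next 3 differed between the groups: by group means it was ZC3H13 (139 TPM), VIRMA (137 TPM) and METTL14 (137 TPM) in large-follicle oocytes, and VIRMA (125 TPM), ZC3H13 (100.2 TPM) and METTL14 (99.2 TPM) in small-follicle oocytes. VIRMA stood above ZC3H13, and above METTL14, in 1 of 3 large-follicle libraries and in 3 of 3 small-follicle libraries. ZC3H13 and METTL14 did not differ beyond their spread in either group, with ZC3H13 the higher in 2 of 3 libraries of each. Below them METTL14 stood over RBM15B in 6 of 6 libraries, by 1.19 to 1.64 times, RBM15B over METTL3 in 6 of 6, by 1.56 to 1.91 times, and METTL3 over RBM15 in 6 of 6, by 4.59 to 6.39 times.

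These ranks depend on the gene lengths the authors used, which can be read from the ratio of count to TPM as relative values. The length behind RBM15, the longest of the 8, was 4.57 times that behind METTL3. Those behind ZC3H13, VIRMA, CBLL1 and WTAP were 2.89, 2.88, 2.48 and 1.63 times that behind METTL3. That behind METTL14 was 1.33 times and that behind RBM15B 1.10 times. Without the correction for length RBM15 and METTL3 were close, at 31.5 ± 5.77 and 35.2 ± 3.29 CPM (read counts scaled to library size with TMM factors, with no correction for length) in large-follicle oocytes and at 28.9 ± 1.88 and 35.9 ± 1.72 CPM in small-follicle oocytes. The gap between RBM15 and METTL3 in TPM therefore came mainly from the length assigned to RBM15. RBM15B was at 70.6 CPM in large-follicle oocytes and 66.3 CPM in small-follicle oocytes, so its distance from RBM15 was also smaller in CPM. The place of WTAP above VIRMA and ZC3H13 was reversed in mean CPM. WTAP was at 206, VIRMA at 291 and ZC3H13 at 297 CPM in large-follicle oocytes, and at 189, 265 and 212 CPM in small-follicle oocytes.

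The members that stood furthest apart between the groups were METTL14, a partner in the catalytic pair, and ZC3H13, a regulatory subunit. Both had higher levels in every large-follicle library than in any small-follicle library. WTAP also did, and 12.1% of all genes tested showed this pattern in that direction. In edgeR's quasi-likelihood test 0 of the 8 writers passed a Benjamini-Hochberg adjusted p under 0.05 over 14091 genes, where 0.0639% of all genes passed. At an unadjusted p under 0.05 there were 2 writers, METTL14 and ZC3H13, beside 9.85% of all genes that did so with higher levels in large-follicle oocytes. DESeq2's test put 2 writers past its adjusted threshold, METTL14 and ZC3H13, in a comparison where it called 2.72% of all genes as higher in large-follicle oocytes. The same 2 passed in edgeR's test when no filter on low counts was applied, beside 0.0467% of all genes called in that direction. In 7 of 8 writers the mean was higher in large-follicle oocytes, beside 7155 of the 14091 genes tested. Without large-follicle library 2 it was higher in 6 writers, and without large-follicle library 1 in 8. The median log2 difference of the writers was 0.13, against 0.0039 over all genes tested and 0.029 over genes with a mean of at least 5 CPM.

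METTL14 had 133, 151 and 126 TPM in large-follicle libraries 1, 2 and 3, against 96.5, 96.0 and 105 TPM in small-follicle libraries 1, 2 and 3. The lowest large-follicle library lay above the highest small-follicle library. METTL14 has a methyltransferase fold but no catalytic activity of its own, and serves METTL3 as an RNA-binding partner. On the count scale its log2 difference, large minus small, was 0.47 (SE 0.080), with 134 ± 9.84 CPM in large-follicle oocytes and 96.9 ± 4.37 CPM in small-follicle oocytes. Of all genes tested, 2.86% had a log2 difference at or above it, and of the 9864 genes with a mean of at least 5 CPM, 0.912% did.

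METTL3 had 42.5, 50.3 and 50.3 TPM in large-follicle libraries 1, 2 and 3, against 49.5, 50.3 and 46.8 TPM in small-follicle libraries 1, 2 and 3. The groups overlapped, and large-follicle library 1 was the lowest of all 6. The log2 difference was -0.032 (SE 0.094), and without large-follicle library 1 it was 0.041 (SE 0.086), so its sign rested on that library. Without large-follicle library 3 it was -0.084 (SE 0.088).

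Within each library METTL14 messages outnumbered METTL3 messages per length. METTL14 was 3.14, 3.01 and 2.51 times METTL3 in large-follicle libraries 1, 2 and 3, and 1.95, 1.91 and 2.25 times METTL3 in small-follicle libraries 1, 2 and 3. The ratio averaged 2.88 ± 0.333 in large-follicle oocytes and 2.03 ± 0.184 in small-follicle oocytes, and the groups did not overlap. The summed level of the pair was 184 ± 14.7 TPM in large-follicle oocytes and 148 ± 3.34 TPM in small-follicle oocytes. METTL3 itself overlapped between the groups, so the ratio of METTL14 to METTL3 mainly restates the difference of METTL14. The ratio was not tested, and it is a statement on RNA and not on protein.

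ZC3H13, a large zinc-finger protein that helps keep the assembly in the nucleus, had 148, 142 and 127 TPM in large-follicle libraries 1, 2 and 3, against 103, 91.3 and 106 TPM in small-follicle libraries 1, 2 and 3. Again every large-follicle library lay above every small-follicle library. Its log2 difference was 0.48 (SE 0.082), with 297 ± 21.1 CPM in large-follicle oocytes and 212 ± 14.1 CPM in small-follicle oocytes. Of all genes tested, 2.75% had a log2 difference at or above it.

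The scaffold genes that bind ZC3H13 differed less. VIRMA, the largest scaffold of the assembly, which steers methylation towards the ends of messages near stop codons, had 144, 144 and 122 TPM in large-follicle libraries 1, 2 and 3, against 127, 121 and 128 TPM in small-follicle libraries 1, 2 and 3. Large-follicle libraries 1 and 2 stood above the small-follicle libraries and large-follicle library 3 among them, with a log2 difference of 0.14 (SE 0.076), and of 0.19 (SE 0.062) without that library. WTAP had 175, 174 and 165 TPM in large-follicle libraries 1, 2 and 3, against 152, 161 and 159 TPM in small-follicle libraries 1, 2 and 3. The groups of WTAP did not overlap, though the log2 difference was small, at 0.13 (SE 0.068). The 3 writers without overlap, all higher in large-follicle oocytes, stand beside 12.1% of all genes tested that showed this pattern in that direction.

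**Figure D2:**
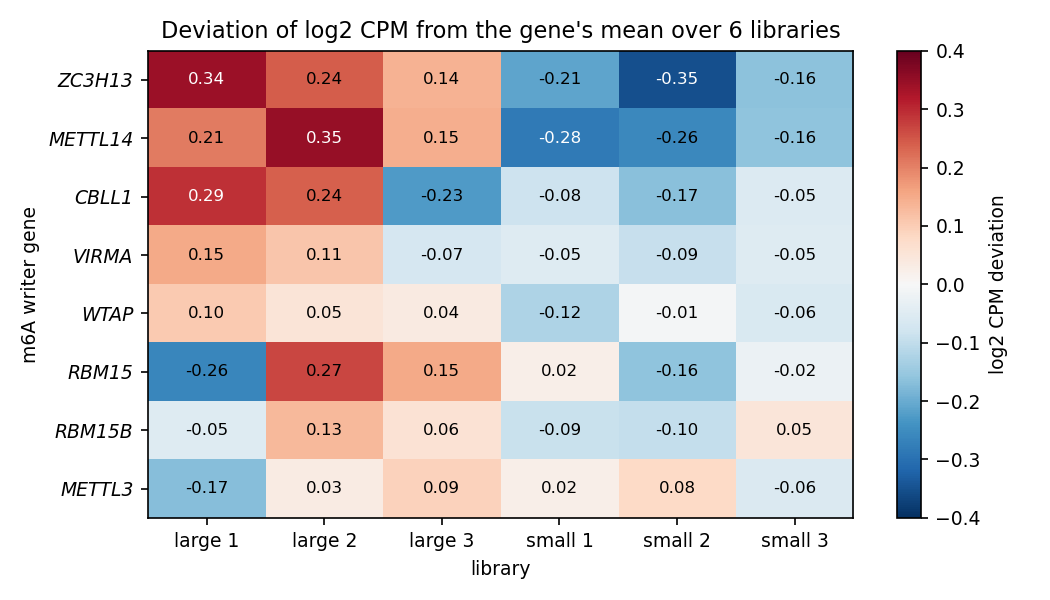
Deviation of log2 CPM from each writer's own mean over the 6 libraries, with genes as rows by their difference and libraries as columns, large-follicle libraries on the left. ZC3H13, METTL14 and, by smaller deviations, WTAP are above their mean in all 3 large-follicle libraries and below it in all 3 small-follicle libraries. Large-follicle library 3 is below the mean for CBLL1 and VIRMA.

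Ratios between subunits within a library restate the differences of METTL14 and ZC3H13 relative to other writers. ZC3H13 was 1.03, 0.989 and 1.04 times VIRMA in large-follicle libraries 1, 2 and 3, and 0.808, 0.754 and 0.834 times VIRMA in small-follicle libraries 1, 2 and 3. Messages of these subunits were thus about level in large-follicle oocytes, and those of ZC3H13 were the fewer in small-follicle oocytes. Against WTAP, ZC3H13 averaged 0.812 ± 0.0392 times in large-follicle oocytes and 0.637 ± 0.0619 times in small-follicle oocytes. METTL14 averaged 1.57 ± 0.0953 times RBM15B in large-follicle oocytes and 1.20 ± 0.0206 times RBM15B in small-follicle oocytes. Ratios without these genes overlapped between the groups: CBLL1 was 1.88 to 2.57 times WTAP in large-follicle libraries and 2.02 to 2.32 times WTAP in small-follicle libraries, and METTL3 was 0.242 to 0.304 times WTAP in large-follicle libraries and 0.294 to 0.325 times WTAP in small-follicle libraries.

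**Figure D3:**
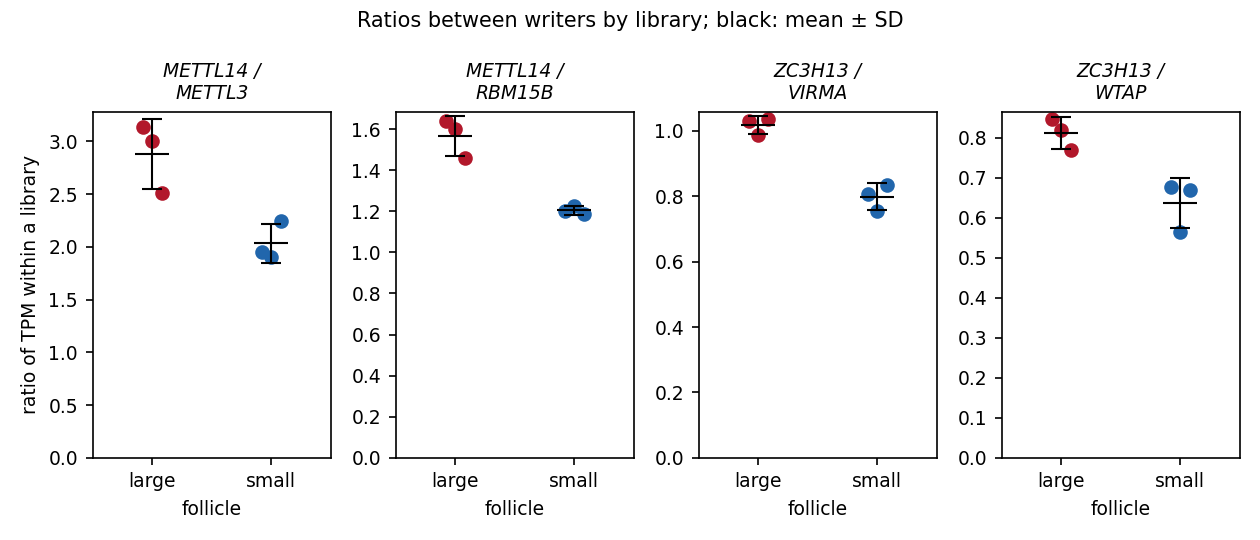
Ratios of TPM between writers within each library, for METTL14 over METTL3, METTL14 over RBM15B, ZC3H13 over VIRMA and ZC3H13 over WTAP. Points are libraries, large-follicle on the left and small-follicle on the right of each panel. Black marks give the mean ± SD and each axis starts at 0. In all 4 panels the large-follicle libraries lie above the small-follicle ones. Each panel has METTL14 or ZC3H13 as the upper gene, so the panels restate the differences of these genes. Ratios computed without METTL14 and ZC3H13 overlapped between the groups and are not drawn.

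CBLL1 varied most among the large-follicle libraries. It had 451, 446 and 311 TPM in large-follicle libraries 1, 2 and 3, against 354, 326 and 361 TPM in small-follicle libraries 1, 2 and 3. Large-follicle libraries 1 and 2 were the highest of the 6 and large-follicle library 3 the lowest. The log2 difference was 0.22 (SE 0.12) with all libraries and 0.36 (SE 0.069) without large-follicle library 3. Without large-follicle library 1 it was 0.13 (SE 0.12) and without large-follicle library 2 it was 0.16 (SE 0.14), so its size depended on which large-follicle libraries were kept. The mean in large-follicle oocytes was 449 TPM without library 3, against 403 TPM with it. CBLL1 made up 35.3 ± 3.71% of the summed writer TPM in large-follicle oocytes and 35.8 ± 0.734% in small-follicle oocytes, and 37.4% in the large-follicle libraries other than library 3.

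The paralogous recruiters RBM15 and RBM15B, which bind RNA next to sites of methylation, overlapped between the groups. RBM15 had 7.39, 11.0 and 9.70 TPM in large-follicle libraries 1, 2 and 3, against 9.14, 7.87 and 8.87 TPM in small-follicle libraries 1, 2 and 3. Both the lowest and the highest value were in large-follicle libraries. The log2 difference of RBM15 was 0.12 (SE 0.13), and it was 0.27 (SE 0.092) without large-follicle library 1, -0.0082 (SE 0.14) without large-follicle library 2 and 0.064 (SE 0.16) without small-follicle library 2. It rested on 270 reads in large-follicle library 3, for which counting error alone is 6.09%. RBM15B had 81.2, 94.6 and 86.4 TPM in large-follicle libraries 1, 2 and 3, against 80.5, 78.2 and 88.6 TPM in small-follicle libraries 1, 2 and 3, with a log2 difference of 0.092 (SE 0.082). That of RBM15B was 0.14 without large-follicle library 1 or small-follicle library 3, 0.045 without large-follicle library 2 and 0.060 without small-follicle library 2. RBM15B messages were 8.63 to 11.0 times those of RBM15 per length in large-follicle libraries and 8.80 to 9.99 times in small-follicle libraries.

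**Figure D4:**
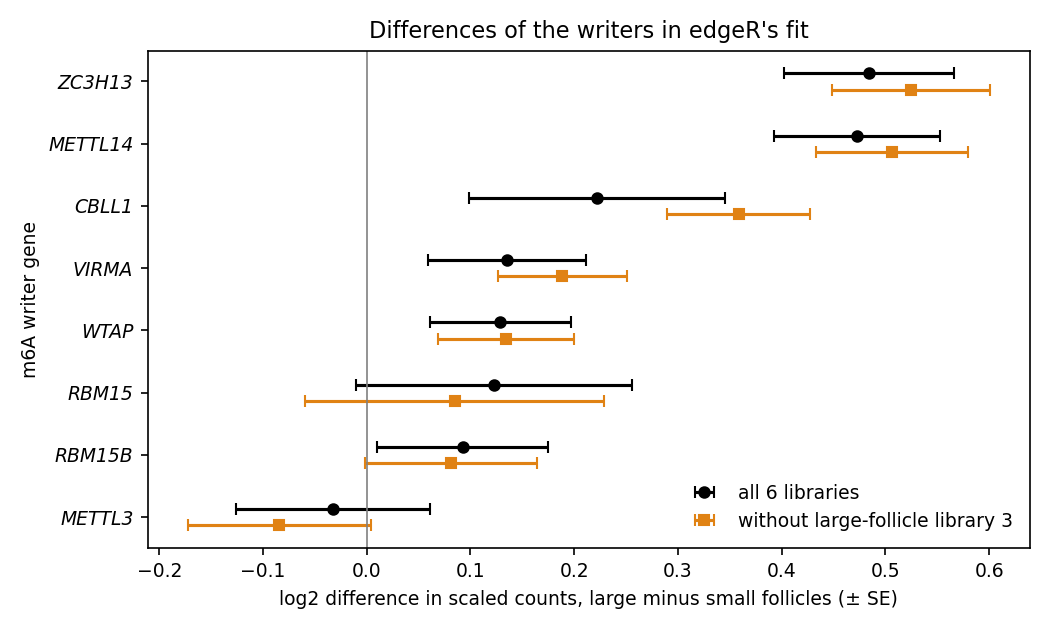
Log2 difference in scaled counts of each writer, large minus small follicles, with its SE, from edgeR's fit on all 6 libraries (black circles) and without large-follicle library 3 (orange squares). ZC3H13 and METTL14 lie at 0.48 and 0.47, the other 6 between -0.03 and 0.22, and CBLL1 moves most, to 0.36, without that library.

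The shallowest library, large-follicle library 3, held the smallest large-follicle values of METTL14, ZC3H13, VIRMA, WTAP and CBLL1. Without it the log2 differences of METTL14 and ZC3H13 were 0.51 (SE 0.073) and 0.52 (SE 0.076), and 3 writers, METTL14, ZC3H13 and CBLL1, passed the adjusted threshold in edgeR's test, in a comparison where 7.79% of all genes passed as higher in large-follicle oocytes. Summed over the 8 genes, writers had 1183, 1214 and 998 TPM in large-follicle libraries 1, 2 and 3, against 972, 932 and 1004 TPM in small-follicle libraries 1, 2 and 3, so large-follicle library 3 lay among the small-follicle libraries. Leaving CBLL1 out, the sums were 732, 767 and 687 TPM in large-follicle libraries 1, 2 and 3, against 618, 606 and 643 TPM in small-follicle libraries 1, 2 and 3, without overlap. CBLL1, the gene left out, was lowest in large-follicle library 3, and METTL14, ZC3H13 and WTAP, which do not overlap, stay in the sum. The sum without CBLL1 therefore restates the values by gene and adds nothing to them.

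Across the 6 libraries the writers did not share 1 pattern. Likeness was measured as the root mean square difference in log2 CPM, after each gene was centred on its own mean. Over the 28 pairs of writers it ranged from 0.069 (WTAP and VIRMA) to 0.31 (METTL3 and ZC3H13), with a median of 0.18. METTL14 lay closer to ZC3H13, at 0.085, than to its partner METTL3, at 0.28. These distances contain the differences between the groups given above for the 3 genes, and so largely restate them. Among 9160 other genes with a symbol and at least 5 CPM, those most like METTL14 were NEXN, ACAP2 and ARID4A, at 0.028, 0.044 and 0.049. Those most like METTL3 were TMEM218, CLPB and THAP11, at 0.024, 0.028 and 0.029. With 6 libraries and so many genes close matches are plentiful, and these are descriptions only.

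Other genes of the pathway were taken as lists of erasers, readers, other RNA adenosine methyltransferases and suppliers of the methyl donor. In edgeR's test 0 of the 24 tested members of these lists passed in either direction, beside 0.0639% of all genes, while 5 had an unadjusted p under 0.05 in either direction, as did 18% of all genes. These 5 were YTHDC1, HNRNPA2B1 and IGF2BP2, with higher means in large-follicle oocytes, and ALKBH5 and AHCY, with lower ones; HNRNPA2B1, IGF2BP2 and AHCY are named here after their values were seen. DESeq2's test called 1 of the 24, YTHDC1, as higher, beside the 2.72% of all genes it called in that direction. IGF2BP1 and MAT1A did not pass the filter on low counts. Of the demethylases, ALKBH5 was at 134 ± 6.87 TPM in large-follicle oocytes and 156 ± 8.47 TPM in small-follicle oocytes. Its log2 difference was -0.21 (SE 0.070), with no overlap of the groups, a pattern that 11.6% of all genes showed in that direction. The groups of YTHDC1, HNRNPA2B1, IGF2BP2 and AHCY did not overlap either. Counting both directions, 23.7% of all genes tested showed no overlap. FTO was near the bottom of the pathway, at 2.21 ± 0.399 TPM in large-follicle oocytes and 2.39 ± 0.345 TPM in small-follicle oocytes.

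Of 12 tested readers, 10 had higher means in large-follicle oocytes, beside 7155 of the 14091 genes tested. Their log2 differences were -0.095 to 0.34, with a median of 0.062. The upper end was YTHDC1, the nuclear reader, at 71.6 ± 3.05 TPM in large-follicle oocytes and 57.0 ± 1.98 TPM in small-follicle oocytes (log2 difference 0.34, SE 0.070). YTHDF2, the cytoplasmic reader that sends marked messages to decay, was at 46.4 ± 6.58 TPM in large-follicle oocytes and 45.3 ± 2.57 TPM in small-follicle oocytes. The 6 genes for other methyltransferases and a partner had log2 differences of -0.13 to 0.17, with METTL16, which methylates U6 small nuclear RNA, at 0.088 (SE 0.12). MAT2A, which makes S-adenosylmethionine, was at 210 ± 6.37 TPM in large-follicle oocytes and 202 ± 6.40 TPM in small-follicle oocytes, with a log2 difference of 0.062 (SE 0.070).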

How the data were processed

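For each library the authors deposited raw counts of reads by gene, whole numbers without normalisation, per the file headers. Next to these stand TPM values, which the authors scaled by length and depth. The submitters' processing notes name build Sscrofa11.1. Aligner, counter and annotation release were not given in the sources used here. Per the labels' protocols a directional library kit was used on 360 oocytes, without saying whether per group or in all.

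A date stood as gene name in 25 rows (mean 0.153% of reads), which were left out. Of 4604 rows named by an Ensembl identifier, 853 were given a symbol. Counts were fitted in R 4.3.3 by quasi-likelihood with edgeR 4.0.16 (TMM, filterByExpr, robust) on group alone, on 14091 genes, with a Benjamini-Hochberg threshold of 0.05; each SE was taken from the log2 difference and the square root of its F statistic. Log2 CPM used a prior count of 2. DESeq2 1.42.0 and limma 3.58.1 (on log2 of TPM + 0.1) were alternatives, with other scalings and filters, a replicate block and each library left out. The scripts were tested on simulated counts.

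Members and lists were chosen with earlier results of these data known. The rule for named genes took all writers, 6 fixed genes of the other lists, and the 3 genes most like METTL3 and METTL14; other list members named were added after their values were seen. Counting error is largest in the shallowest library, and covers counting only. No library repeated another of its group, since chi-square over degrees of freedom for a pair was 10.4 to 22.2, above sampling noise.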

Additional observations from a re-analysis of the deposited data

How the results depend on the processing

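METTL14, ZC3H13, WTAP, VIRMA, CBLL1 and RBM15B kept their direction under all 13 alternatives. METTL14 ranged over 0.41 to 0.51 and ZC3H13 over 0.42 to 0.52 on the log2 scale. Against 0 writers and 9 genes with the settings of the report, the number past the adjusted threshold was 2 writers among 52 genes without a filter on low counts (METTL14 0.45, ZC3H13 0.46), and 2 among 710 by DESeq2 (METTL14 0.47, ZC3H13 0.48). With a library left out it ranged from 0 to 3 writers and from 0 to 1899 genes. The 3 were METTL14, ZC3H13 and CBLL1 without large-follicle library 3 (0.51, 0.52 and 0.36), where 13.2% of all genes passed; leaving out large-follicle library 1 gave 77 genes, and leaving out large-follicle library 2 or any small-follicle library gave 0, with 1448 to 1918 genes at an unadjusted p under 0.05. No writer passed in edgeR with DESeq2's size factors (0 genes; 2525 at an unadjusted p under 0.05), on library size alone (14 genes), at a mean of 5 CPM or more (19 genes), or with limma on TPM (0 genes; 2157 at an unadjusted p under 0.05). With a library left out METTL3 ranged over -0.084 to 0.041 (above 0 without large-follicle library 1), RBM15 over -0.0082 (without large-follicle library 2) to 0.27, CBLL1 over 0.13 to 0.36, RBM15B over 0.045 to 0.14, VIRMA over 0.092 to 0.19 and WTAP over 0.099 to 0.15.

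The labels do not say whether same-numbered libraries of the groups belong together. Same-numbered libraries deviated with correlations of -0.095, 0.0028 and -0.16, and differently numbered ones with correlations of -0.078 to 0.14. With 3 libraries a group these values cannot show whether the numbers mark a shared collection. With the number as a replicate block 24 genes and 0 writers passed. Only 3 libraries a group, 1 of them shallow, limit all of these differences, and the cause of the changes in count was not tested.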
